A study of Mus musculus with 6 samples.

Results

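The 37 genes described here are immediate early genes and relatives of theirs. Immediate early genes are those whose transcription cells switch on first after a signal, without making new protein beforehand. The name is used here for all 37, although Jund is steadily expressed in most tissues and Fosl2 is a late relative. The 37 comprise the Fos and Jun subunits of the transcription factor AP-1, the Egr, Nr4a and Klf transcription factors, and the Ier genes. With them stand the Dusp phosphatases, the Zfp36 RNA decay factors and Btg2, and a few stress and feedback genes. The genes were listed by symbol, with earlier results of these data known, and all 37 were found among the 41128 genes of the deposited table. Of these, 35 reached a mean of 1 RPM (reads scaled to a common total per library) over the 6 libraries and were tested, as were 13597 genes in all. The other 2, Egr2 and Egr3, stayed below that minimum.

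The study asked how YH250, which the submitters call a p300/catenin antagonist, alters gene expression in LTR-HSC, blood stem cells of the bone marrow that repopulate over the long term and can rebuild blood after transplantation. One group of C57BL mice received YH250 at 2 mg/kg under the skin, and the control group received the vehicle DMSO. Bone marrow was taken 16 hours later and sorted for Lin- Sca1+ c-Kit+ CD41- CD48- CD150+ cells, and poly(A) RNA was sequenced from 3 libraries per group, numbered 1 to 3 in each. Both groups share the strain, the sort and an amplification from very little RNA; the sex and age of the mice, and whether a library holds cells of 1 animal or of a pool, are not given in the sources used here.

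AP-1 is a dimer of Fos and Jun proteins, or of Jun proteins alone, that binds DNA at short palindromic sites. Growth factors, cytokines and stress reach its genes through MAP kinases, which act on the serum response factor at CArG boxes and on CREB and ATF proteins at cyclic AMP response elements. The response limits itself, because the Dusp proteins remove phosphate from MAP kinases and the Zfp36 proteins bind AU-rich messages and recruit the enzymes that shorten their poly(A) tails. In mouse blood stem cells, Egr1, Nr4a1 and Junb are known as brakes on proliferation. Immediate early genes are also known to be induced while tissues are dissociated and sorted.

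The libraries numbered 3 stood apart from the rest of their groups. On the first principal component of all tested genes (47.99% of the variance), YH250 3 and DMSO 3 lay at 72.3 and 67.4 and the other libraries between -49.0 and -26.8, while YH250 2 stood alone on the second (-79.3). A gene at 1 RPM rested on about 21.96 to 31.2 reads, so values far below 1 RPM are a handful of reads. The 10 stem cell markers summed to 767.9, 826.3 and 197 RPM in YH250 1, 2 and 3, and to 966, 835.7 and 270.9 RPM in DMSO 1, 2 and 3. The 10 B cell markers summed to 176.9, 310.5 and 915.4 RPM in YH250 1, 2 and 3, and to 65.65, 290.7 and 762.3 RPM in DMSO 1, 2 and 3. Stem cell markers were therefore low, and B cell markers high, in both libraries numbered 3. The 10 T and NK cell markers summed to 160.2 to 564.6 RPM in YH250 and to 82.02 to 621.8 RPM in DMSO, again highest in number 3, although the sort was to exclude lineage-positive cells. Slamf1, which encodes the sort marker CD150, stood at 31.55, 3.917 and 1.543 RPM in YH250 1, 2 and 3, and at 35.46, 0.515 and 4.69 RPM in DMSO 1, 2 and 3, so its transcript was scarce outside number 1. YH250 2 stood apart for another list, with 451.1 RPM summed over the 13 stroma and endothelium markers against 128.7 to 154.1 RPM in the other libraries. No marker list was at 0 in every library.

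Promoter sequence was read for the 30 of 37 members that have an entry in the RefSeq table of GRCm38.p6, as 250 bases before to 50 after each start, and stretches of 80 bases around the motifs are shown because the motifs are of the kinds through which the signals described above act. The cyclic AMP response element TGACGTCA, searched on both strands, occurred in 5 members (16.7%), against 2.03% of the 27025 genes with a promoter entry. The windows of 4 of them follow, with the motif in capitals: Dusp1 (chr17:26508572-26508651, minus strand), Ppp1r15a (chr7:45526269-45526348, minus), Btg2 (chr1:134079278-134079357, minus) and Errfi1 (chr4:150854983-150855062, plus). The fifth member holding it was Maff.
Dusp1: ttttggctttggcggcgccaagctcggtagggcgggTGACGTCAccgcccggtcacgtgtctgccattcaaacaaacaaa
Ppp1r15a: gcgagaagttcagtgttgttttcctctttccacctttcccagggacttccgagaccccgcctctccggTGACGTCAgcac
Btg2: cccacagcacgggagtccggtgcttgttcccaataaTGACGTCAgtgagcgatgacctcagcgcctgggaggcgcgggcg
Errfi1: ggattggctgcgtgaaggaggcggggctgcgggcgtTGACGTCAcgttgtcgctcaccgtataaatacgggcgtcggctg

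The CArG box, the site of serum response factor, was found in 3 members (10%), namely Egr2, Dusp5 and Zfp36, against 1.81% of all genes with a promoter entry. Dusp5 (chr19:53529033-53529112, plus strand) carried a pair of boxes end to end, shown with that of Zfp36 (chr7:28379242-28379321, minus strand), the boxes in capitals.
Dusp5: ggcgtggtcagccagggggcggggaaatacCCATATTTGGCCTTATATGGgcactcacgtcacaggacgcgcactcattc
Zfp36: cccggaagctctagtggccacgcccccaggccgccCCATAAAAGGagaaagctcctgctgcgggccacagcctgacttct

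The AP-1 site of the type known from the Jun promoter, TGACATCA on either strand, was found in Jun, Maff and Klf6 (10%, against 4.18% of all genes with a promoter entry). The classical AP-1 site TGACTCA, on either strand, was found in Csrnp1 alone (3.33%, against 5.95%). The windows of Jun (chr4:95052224-95052303, minus strand) and Klf6 (chr13:5861334-5861413, plus strand) show the site of the Jun type in capitals, in a gene that differed widely between the libraries and in one that did so less. A match describes letters in these windows only.
Jun: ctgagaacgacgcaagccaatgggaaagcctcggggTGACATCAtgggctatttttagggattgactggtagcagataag
Klf6: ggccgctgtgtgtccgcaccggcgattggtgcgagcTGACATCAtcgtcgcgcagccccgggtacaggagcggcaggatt

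Transcripts of the listed genes were abundant in the sorted cells of both groups. The 37 genes summed to 5197.66, 7345.35 and 4193.29 RPM in YH250 1, 2 and 3, and to 5733.49, 6576.94 and 4571.88 RPM in DMSO 1, 2 and 3. That was 0.667%, 0.865% and 0.448% of the RPM in genes in the YH250 libraries, and 0.819%, 0.870% and 0.477% in the DMSO libraries. The share was thus lowest in both libraries numbered 3 and highest in both numbered 2. A mean of at least 10 RPM was reached by 30 members and a mean of at least 100 RPM by 14. Per kb of merged exon, the highest mean levels over the 6 libraries were those of Ier2 (280.28 RPM per kb), Junb (256.39), Zfp36l2 (246.57), Fos (235.37) and Jund (192.46). At the other end stood Egr3 (0.00759 RPM per kb), Egr2 (0.259), Nr4a3 (0.328), Errfi1 (0.411) and Fosl1 (0.591). Egr1 was therefore the most abundant Egr transcript, and Nr4a1 and Nr4a2 the main Nr4a receptors. YH250 2 was the highest of the 6 libraries for 14 of the 35 tested members. The share of all genes highest in YH250 2 was not computed, so this count only describes the members. The stroma and endothelium markers summed to 451.1 RPM in YH250 2, of which Cxcl12 gave 202.1 RPM, and to 154.1 RPM in DMSO 2. The part of those markers in the members' levels was not tested.

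**Figure D1:**
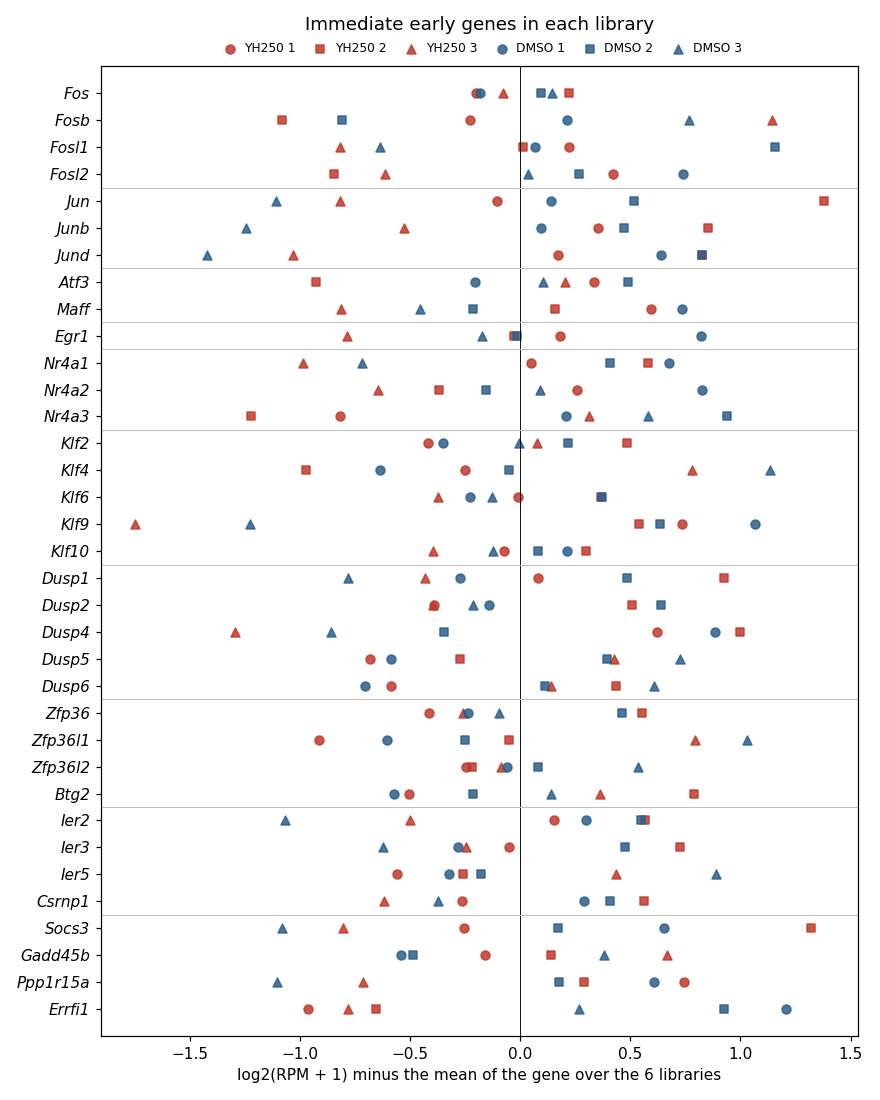
Each point is 1 library, placed by its log2(RPM + 1) minus the mean of the gene over the 6 libraries, for the 35 tested genes in order of role; YH250 libraries are red and DMSO libraries blue, and the shape gives the replicate number. Libraries of the same number (same shape) lie together for most genes, whereas red and blue separate for Errfi1 and Zfp36l2 alone.

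Between YH250 and DMSO, no immediate early gene passed the test. In limma, with Benjamini-Hochberg adjustment over all 13597 genes and a threshold of 0.05, 0 of 35 members were called, as were 0% of all genes, and the adjusted p of every member was 0.999. At an unadjusted p under 0.05, limma gave 1 member (2.86%), against 1.7% of all genes. It was Errfi1, which was lower in YH250, as were 0.765% of all genes, while 0 members and 0.934% of genes were higher. Errfi1 reached the minimum of 1 RPM only through DMSO, where it was high, as did Nr4a3 and Fosl1, so a lower value in YH250 was built into their passing. The median log2 difference was -0.11 over the 35 members and 0.02 over all genes, and 24 members (68.6%) had a lower mean in YH250, as did 48.3% of all genes. The median over the members was -0.19, 0.09 and -0.23 for YH250 minus DMSO within numbers 1, 2 and 3, so its sign was not shared by the 3 numbers. It was 0.04 without YH250 3 and 0.001 without DMSO 2. The median standard error of a member's log2 difference was 0.41. In bulk RNA, fewer cells of a type and less RNA per cell cannot be told apart, and the labels do not say that the libraries came from separate animals, so every p-value measures only the spread between these libraries.

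The members' directions were mixed. YH250 and DMSO libraries did not overlap for 2 members (5.71%), Zfp36l2 and Errfi1, both lower in YH250; 7.48% of all genes did not overlap, 3.68% with YH250 below and 3.79% with YH250 above. Leaving out 1 library, or both of a number, left 3 to 6 such members (8.57% to 17.1%), against 13.3% to 33.3% of all genes. Within each number, YH250 was lower at all 3 numbers for 10 members (28.6%, against 15% of all genes) and higher at all 3 for 6 (17.1%, against 16.1%). The 10 were Fosl2, Egr1, Nr4a2, Nr4a3, Klf9, Dusp2, Dusp5, Zfp36l2, Ier5 and Errfi1. The 6 were Junb, Dusp1, Btg2, Ier3, Gadd45b and Ppp1r15a. With the replicate number as a block in limma, 0 members and 0% of genes had an adjusted p under 0.05, while 8 members (22.9%) and 7.44% of genes had an unadjusted p under 0.05. Of these, Fosl2, Egr1, Nr4a2, Nr4a3, Zfp36l2 and Errfi1 were lower in YH250 (2.99% of all genes were lower) and Junb and Dusp1 were higher (4.46% of all genes were higher). Without a mean-variance trend in that blocked fit the members with an unadjusted p under 0.05 were 3, namely Errfi1, Fosl2 and Nr4a3 (8.57%, against 5.84% of all genes). Errfi1 and Nr4a3 reached the minimum of 1 RPM only through DMSO, where they were high. Their lower values in YH250 were thus built into each count here that holds them, and they lend these counts no support.

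**Figure D2:**
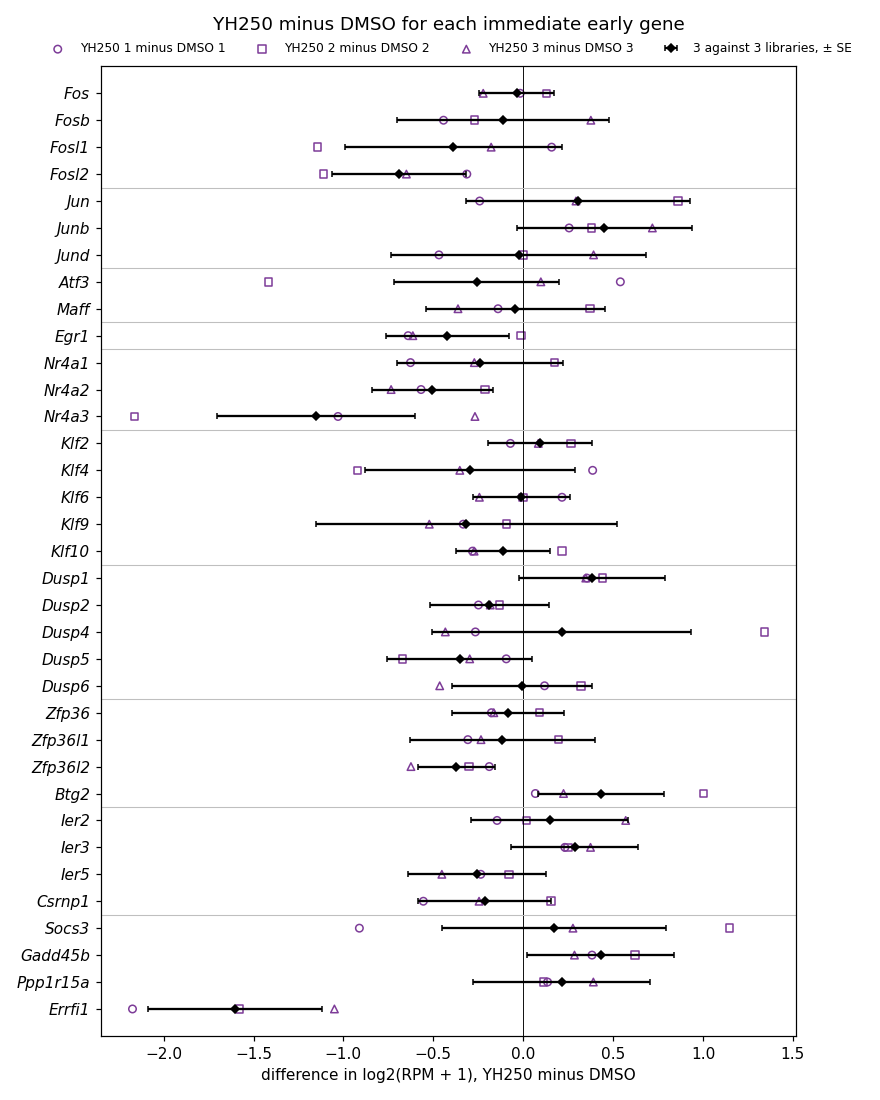
For each gene, the diamond and bar give the log2 difference of 3 YH250 minus 3 DMSO libraries with its SE (limma, no block), and the open symbols give YH250 minus DMSO within each replicate number. Errfi1 lies farthest to the left at -1.60, and the bars of most genes cross 0.

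The replicate numbers, in contrast, separated the immediate early genes. A moderated F test on the number (limma, with treatment in the model, 2 libraries per number) called 15 of 35 members (42.9%) and 7.84% of all genes at an adjusted p under 0.05. At an unadjusted p under 0.05 it gave 27 members (77.1%), against 27.5% of all genes. The 15 were Klf9, Jund, Ppp1r15a, Junb, Jun, Dusp1, Zfp36l1, Fosb, Nr4a1, Ier2, Dusp2, Ier3, Ier5, Dusp5 and Zfp36, with Zfp36 just inside the threshold (adjusted p = 0.0417) and Egr1 just outside it (0.0513). This count depends on how the variance is estimated. Without a mean-variance trend it was 1 member, Klf9 (1.63% of all genes, and 20 members at an unadjusted p under 0.05). With no minimum on the mean RPM, limma called 0 members (0.221% of genes), with 27 members at an unadjusted p under 0.05. Without DMSO 2 it was 26 members (33.4% of genes). What a number stands for is not given in the labels, so it cannot be told apart from any day, animal, sort or library batch it may mark.

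The called differences lay between number 3 and the other numbers. Between numbers 3 and 2, 10 members were lower in number 3 (Jun, Junb, Jund, Nr4a1, Klf9, Dusp1, Dusp2, Ier2, Ier3 and Ppp1r15a), against 2.64% of all genes, and 2 were higher (Fosb and Zfp36l1), against 3.67%, at an adjusted p under 0.05 in limma. Between numbers 3 and 1, 8 members were lower in number 3 (Jun, Junb, Jund, Egr1, Nr4a1, Klf9, Ier2 and Ppp1r15a), against 2.96% of genes, and 4 were higher (Dusp5, Dusp6, Zfp36l1 and Ier5), against 5.6%. Between numbers 2 and 1 limma called 0 members, and 0.177% of genes were higher and 0.0221% lower. Both libraries numbered 3 were the lowest of the 6 for 15 members (42.9%, against 14.3% of all genes), and both numbered 2 were the highest for 11 (31.4%, against 9.69%). Both numbered 3 were the highest for 6 (17.1%, against 19.9%), and both numbered 2 the lowest for 1, Fosb (9.51% of all genes). Both numbered 1 were the lowest for 7 (20%, against 10.6%) and the highest for 6 (17.1%, against 9.58%). Such an order by 1 number held for 31 of 35 members (88.6%), against 57.2% of all genes. The part of the sum of squares of log2(RPM + 1) that went with the number had a median of 87.5% over members and 58.2% over all genes; that which went with treatment had a median of 5.10% over members and 10.3% over all genes. The number has 2 degrees of freedom here and treatment 1. The same F test called markers of cell types to unlike degrees, against 7.84% of all genes. Of tested markers it called 8 of 10 for stem cells, 9 of 9 for B cells and 4 of 9 for T and NK cells. It called 4 of 8 for megakaryocytes, 2 of 7 for erythroid cells and 2 of 10 for granulocytes and macrophages. For stroma and endothelium it called 2 of 12. The part of these lists in the differences between numbers was not tested.

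**Figure D3:**
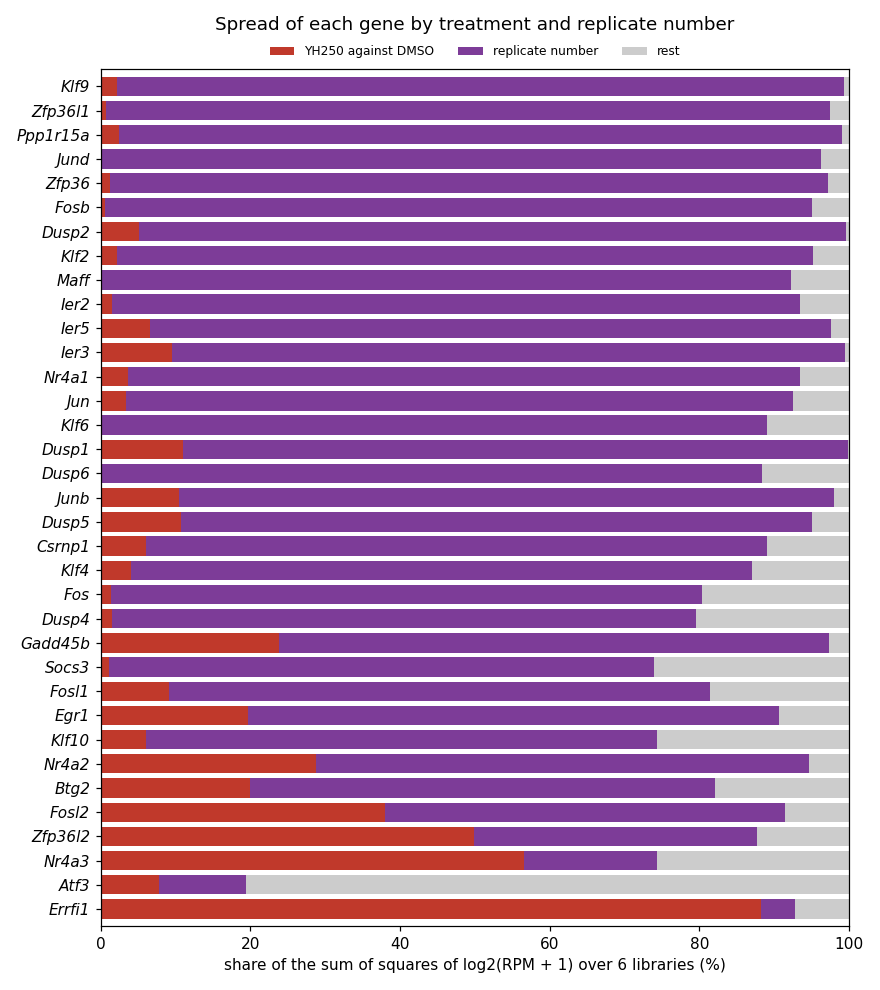
Bars split each gene's sum of squares of log2(RPM + 1) over the 6 libraries (100%) into treatment, replicate number and rest, in order of the part of the number. The number takes 97.2% for Klf9 at the top, whereas treatment takes 88.2% for Errfi1 at the bottom.

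Among the Fos subunits, which contribute the partner that cannot pair with itself, Fos was the steadiest and most abundant. Fos (chromosome 12, 85473890 to 85477273, GRCm38) stood at 478.86, 641.69 and 521.17 RPM in YH250 1, 2 and 3, and at 484.46, 587.1 and 608.25 RPM in DMSO 1, 2 and 3. The groups overlapped and the highest library was 1.34 times the lowest, with a log2 difference of -0.04 ± 0.21 (SE, limma, n = 3 each, as for all differences that follow). Fosb, whose stable splice form is known from chronically stimulated cells, was at 41.2, 22.4 and 108.03 RPM in YH250 1, 2 and 3, and at 56.3, 27.2 and 83.0 RPM in DMSO 1, 2 and 3. It was highest in both libraries numbered 3 and lowest in both numbered 2, in the opposite order to the Jun genes (log2 number 3 minus 2 of 1.90, adjusted p = 0.00506; YH250 minus DMSO of -0.11 ± 0.59). Fosl2, a late and more stable Fos relative, was at 44.9, 18.1 and 21.3 RPM in YH250 and at 56.1, 40.2 and 34.1 RPM in DMSO. Each YH250 library was below the DMSO library of its number, but YH250 1 was above DMSO 2 and 3, so the groups overlapped (-0.69 ± 0.37; unadjusted p = 0.0963, and 0.0151 with the block; adjusted p = 0.999 and 0.66). Fosl1 was scarce, between 0.125 and 1.31 RPM in YH250 and between 0.273 and 3.42 RPM in DMSO.

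The 3 Jun genes, the obligate partners of Fos proteins, differed together between numbers, and none passed the test for treatment. Jun (chromosome 4, 95049034 to 95052222) was at 258.85, 725.29 and 157.54 RPM in YH250 1, 2 and 3, and at 306.33, 398.75 and 128.36 RPM in DMSO 1, 2 and 3. The libraries numbered 3 were the lowest and those numbered 2 the highest, a 5.65-fold range. Junb, which restrains the expansion of myeloid progenitors in mice, was at 678.75, 960.69 and 369.07 RPM in YH250, and at 568.5, 738.83 and 223.94 RPM in DMSO. It followed the same order, and was higher in YH250 at each number (0.45 ± 0.49; unadjusted p = 0.0191 with the block, adjusted p = 0.66). Jund (chromosome 8, 70698949 to 70700616), a steadily expressed Jun gene in most tissues, was at 305.77, 482.34 and 132.22 RPM in YH250, and at 423.53, 481.71 and 100.58 RPM in DMSO. The log2 difference of number 3 minus 2 was -1.91 for Jun, -1.55 for Junb and -2.05 for Jund, and that of YH250 minus DMSO was 0.30 ± 0.62 for Jun and -0.03 ± 0.71 for Jund. Summed, the Jun genes ranged from 658.84 to 2168.3 RPM in YH250 and from 452.88 to 1619.3 RPM in DMSO, while the Fos genes ranged from 566.26 to 683.13 RPM in YH250 and from 597.94 to 725.59 RPM in DMSO. Jun and Junb have exons that overlap a gene on the opposite strand (Junos and Prdx2), as do Fosl1, Jund, Zfp36l1, Dusp1 and Ppp1r15a, and whether strand was used in counting is not stated, so these values may include reads of the partner.

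**Figure D4:**
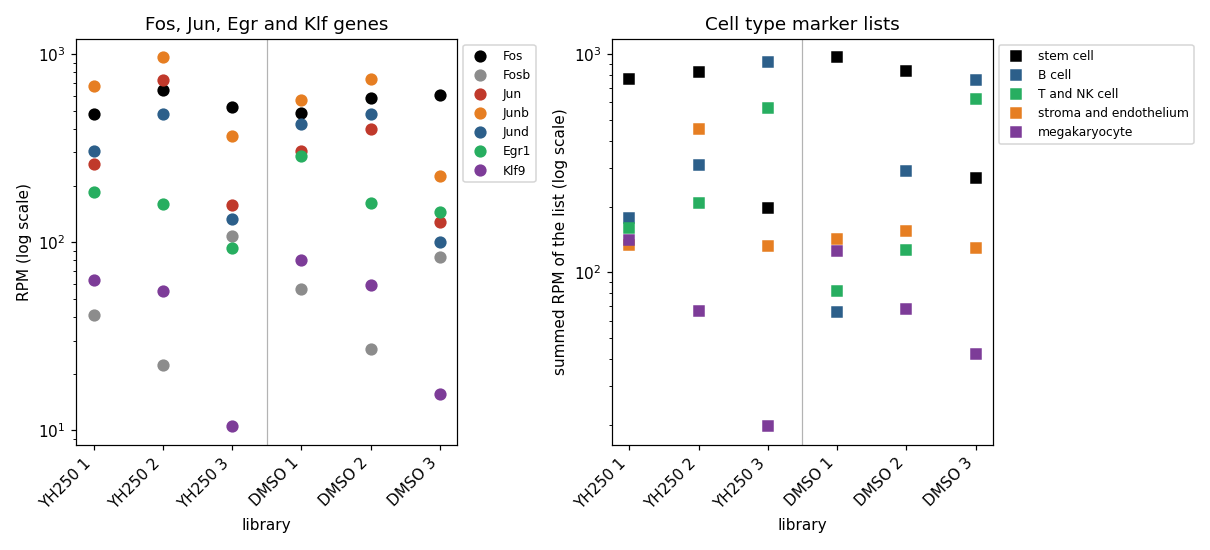
Left, RPM (log scale) of 7 immediate early genes in each library; right, the summed RPM (log scale) of 5 marker lists in the same libraries, with YH250 left of the grey line and DMSO right of it. Jun, Junb, Jund and Klf9 are lowest in both libraries numbered 3, where the stem cell markers are lowest and the B cell markers highest, while Fos stays between 478.86 and 641.69 RPM.

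Maff, a small Maf protein that pairs with other bZIP factors, was at 15.2, 10.96 and 5.10 RPM in YH250, and at 16.9, 8.24 and 6.84 RPM in DMSO, with groups that overlapped (-0.04 ± 0.50). Atf3, a stress-induced bZIP repressor, ranged from 4.28 to 11.7 RPM in YH250 and from 7.71 to 13.1 RPM in DMSO. Atf3 followed neither variable, since 80.7% of its sum of squares lay outside both treatment and number.

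Egr1, a zinc finger factor known to hold blood stem cells in quiescence and in their niche, was at 184.31, 159.41 and 93.7 RPM in YH250 1, 2 and 3, and at 287.77, 160.72 and 143.97 RPM in DMSO 1, 2 and 3. The DMSO library was the higher at each number, though nearly level at number 2, and YH250 1 was above DMSO 2 and 3 (-0.42 ± 0.34; unadjusted p = 0.0393 with the block, adjusted p = 0.66). Egr2 was between 0.03997 and 2.46 RPM in YH250 and between 0 and 1.59 RPM in DMSO, and Egr3 reached at most 0.0641 RPM in YH250 and 0.137 RPM in DMSO. Egr2 passed 1 RPM in YH250 1, YH250 3 and DMSO 3, and Egr3 in none.

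The Nr4a orphan nuclear receptors, of which Nr4a1 and Nr4a3 together restrain blood stem cell proliferation in mice, all had lower mean log2 values in YH250, and none passed the test. Nr4a1 (chromosome 15, 101254269 to 101274795) was at 346.28, 501.35 and 168.44 RPM in YH250 1, 2 and 3, and at 535.31, 444.48 and 203.58 RPM in DMSO 1, 2 and 3. It was lowest in both libraries numbered 3 (number 3 minus 2 of -1.35) and differed between treatments by -0.24 ± 0.46. Nr4a2 was at 72.2, 46.4 and 38.1 RPM in YH250, and at 107.47, 54.0 and 64.0 RPM in DMSO. Nr4a3 was at 0.481, 0.120 and 2.25 RPM in YH250, and at 2.02, 4.01 and 2.91 RPM in DMSO. Nr4a3 reached the minimum of 1 RPM only through DMSO, so a lower value in YH250 was built into its passing. For Nr4a2 and Nr4a3, every YH250 library was below the DMSO library of its number. YH250 1 for Nr4a2 and YH250 3 for Nr4a3 lay within the DMSO range. The log2 difference was -0.51 ± 0.34 for Nr4a2 (unadjusted p = 0.0254 with the block) and -1.15 ± 0.55 for Nr4a3 (unadjusted p = 0.0655, and 0.0374 with the block); neither passed, with an adjusted p of 0.66 in the blocked fit.

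Of the Klf zinc finger factors, Klf9 alone was called between numbers. Klf9 (chromosome 19, 23141226 to 23168134), a glucocorticoid-responsive gene in many tissues, was at 63.3, 55.2 and 10.5 RPM in YH250 1, 2 and 3, and at 79.97, 59.0 and 15.5 RPM in DMSO 1, 2 and 3. The libraries numbered 3 were far below the others, with a log2 difference of -2.39 from number 1 and -2.08 from number 2 (F test on the number, limma adjusted p = 0.00116), while treatments differed by -0.32 ± 0.84. Klf6, an immediate early gene of injured tissue, was at 171.4, 223.25 and 133.25 RPM in YH250, and at 147.47, 223.64 and 157.96 RPM in DMSO, where the groups overlapped (-0.01 ± 0.27). Klf2 ranged from 49.1 to 92.9 RPM in YH250 and from 51.7 to 77.1 RPM in DMSO. Klf10 ranged from 33.4 to 54.7 RPM in YH250 and from 40.6 to 51.4 RPM in DMSO. Klf4, a factor of monocytes and of quiescent lymphocytes, ranged from 5.20 to 19.9 RPM in YH250 and from 6.83 to 25.7 RPM in DMSO, and was highest in both libraries numbered 3.

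Of the 5 Dusp phosphatases, 3 were called between numbers (Dusp1, Dusp2 and Dusp5) and none between treatments. Dusp1 (chromosome 17, 26505590 to 26562128), which inactivates p38 and JNK, was at 323.5, 583.23 and 226.4 RPM in YH250 1, 2 and 3, and at 252.86, 429.64 and 177.68 RPM in DMSO 1, 2 and 3. YH250 was higher by a similar amount at each number, with log2 differences of 0.35, 0.44 and 0.35, yet the spread between numbers was wider and the groups overlapped (0.38 ± 0.41; unadjusted p = 0.0278 with the block, adjusted p = 0.66). Dusp2, a nuclear phosphatase of activated leukocytes, was at 125.16, 234.12 and 124.71 RPM in YH250, and at 148.93, 256.71 and 141.75 RPM in DMSO. It was highest in both libraries numbered 2, and each YH250 library was slightly below its DMSO counterpart (-0.19 ± 0.33). Dusp5, a nuclear ERK phosphatase, was at 29.5, 39.5 and 64.8 RPM in YH250, and at 31.6, 63.4 and 79.9 RPM in DMSO, and was higher in number 3 than in number 1 by 1.21 on the log2 scale (YH250 minus DMSO of -0.35 ± 0.40). Dusp6, the cytoplasmic ERK phosphatase, ranged from 31.2 to 64.2 RPM in YH250 and from 28.6 to 72.5 RPM in DMSO. Dusp4 ranged from 0.584 to 6.76 RPM in YH250 and from 1.14 to 6.18 RPM in DMSO.

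Per kb of merged exon, Zfp36l2 had the highest mean level of the 4 RNA decay factors. The gene (chromosome 17, 84183931 to 84187947), which mice need to form blood stem cells and progenitors in normal number, was at 719.7, 734.16 and 803.73 RPM in YH250 1, 2 and 3, and at 820.42, 904.71 and 1239.6 RPM in DMSO 1, 2 and 3. Every YH250 library was below every DMSO library, with means of 752.53 ± 44.9 RPM in YH250 and 988.24 ± 222 RPM in DMSO (SD, n = 3 each). The log2 difference was -0.37 ± 0.21 (unadjusted p = 0.114, and 0.0427 with the block; adjusted p = 0.999 and 0.66, limma), so the gene did not pass. The limma result for Zfp36l2 depended on scaling. With genes rescaled to one sum the log2 difference was -0.467 (unadjusted p = 0.0058), and with quantile normalization -0.553 (unadjusted p = 0.00246). Median-of-ratios scaling gave -0.377 (unadjusted p = 0.0688), and no scaling gave an adjusted p under 0.05. Zfp36, which encodes tristetraprolin, was at 180.4, 354.21 and 200.8 RPM in YH250, and at 204.07, 332.72 and 225.03 RPM in DMSO, highest in both libraries numbered 2 (-0.08 ± 0.31). Zfp36l1 was at 35.1, 64.6 and 116.9 RPM in YH250, and at 43.7, 56.3 and 137.75 RPM in DMSO, highest in both libraries numbered 3 (number 3 minus 1 of 1.67; YH250 minus DMSO of -0.12 ± 0.51). Btg2, an antiproliferative partner of the CCR4-NOT deadenylase, ranged from 69.1 to 170.73 RPM in YH250 and from 65.8 to 108.51 RPM in DMSO, with the YH250 library higher at each number (0.43 ± 0.35).

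Among the Ier genes, Ier2, a nuclear growth-induced protein, was at 439.96, 586.41 and 279.31 RPM in YH250 1, 2 and 3, and at 486.73, 579.31 and 187.83 RPM in DMSO 1, 2 and 3. It was lowest in both libraries numbered 3 (number 3 minus 2 of -1.34) with no shared direction between treatments (0.15 ± 0.44). Ier3, a survival factor under NF-kappaB control, was at 87.9, 151.34 and 76.6 RPM in YH250, and at 74.8, 127.1 and 58.8 RPM in DMSO. It was highest in both libraries numbered 2, and each YH250 library lay above its DMSO counterpart (0.29 ± 0.35). Ier5, which takes part in the heat shock response, was at 35.5, 43.9 and 71.7 RPM in YH250, and at 41.9, 46.4 and 98.4 RPM in DMSO. It ran the other way, highest in both libraries numbered 3 (number 3 minus 1 of 1.10; YH250 minus DMSO of -0.26 ± 0.38). Csrnp1, a nuclear protein, ranged from 18.5 to 43.3 RPM in YH250 and from 22.1 to 38.7 RPM in DMSO.

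The member with the widest separation by treatment was Errfi1 (chromosome 4, 150853919 to 150868892), which encodes MIG6, a feedback inhibitor of EGF receptor family kinases. It was at 0.0641, 0.320 and 0.208 RPM in YH250 1, 2 and 3, about 2, 8 and 5 reads, and at 3.80, 2.94 and 1.503 RPM in DMSO 1, 2 and 3, about 99, 80 and 33 reads. Every YH250 library was below every DMSO library, with means of 0.197 ± 0.128 RPM in YH250 and 2.75 ± 1.16 RPM in DMSO (SD, n = 3 each). The log2 difference on the RPM + 1 scale, which understates changes at such low levels, was -1.60 ± 0.48, and -2.17, -1.58 and -1.05 at numbers 1, 2 and 3. Its unadjusted p was 0.00922, and 0.00451 with the block, and its adjusted p of 0.999 and 0.66 (limma) did not pass. Its mean in YH250 was below the minimum of 1 RPM, so the gene was tested only because DMSO was high, and these values describe it and support nothing further. Treatment took 88.2% of its sum of squares, against 56.5% for Nr4a3 and 49.9% for Zfp36l2, the next members in that order.

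Of the other 3 stress and feedback genes, Ppp1r15a alone was called between numbers. Ppp1r15a, which encodes GADD34 and restores translation after the integrated stress response, was at 293.85, 214.21 and 106.4 RPM in YH250 1, 2 and 3, and at 267.44, 197.85 and 80.96 RPM in DMSO 1, 2 and 3. It was highest in number 1 and lowest in number 3 (number 3 minus 1 of -1.58; F test on the number, limma adjusted p = 0.00283), and higher in YH250 at each number by less than its error (0.21 ± 0.49). Socs3, an inhibitor of cytokine receptors that use STAT3, ranged from 7.55 to 36.3 RPM in YH250 and from 6.06 to 22.5 RPM in DMSO. Gadd45b, an activator of stress kinase signalling, ranged from 10.3 to 18.97 RPM in YH250 and from 7.64 to 15.4 RPM in DMSO, with YH250 higher at each number (0.43 ± 0.41).

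Genes up- and downstream of these members were taken as 6 lists. None held a gene with an adjusted p under 0.05 for treatment in limma. The 33 genes that carry signals to immediate early transcription (MAP kinases, serum response factor, CREB and their cofactors) had a median log2 difference of -0.06, with 14 higher and 19 lower means in YH250, and 0 genes at an unadjusted p under 0.05. The stress kinase gene Mapk9 was nearest, at 36.8, 29.6 and 38.5 RPM in YH250 and 36.6, 55.9 and 51.4 RPM in DMSO, where the groups overlapped. In the same list 0 of 33 genes were called between numbers, against 7.84% of all genes and 15 of 35 members. Of 14 tested dimer partners of AP-1, 8 had higher and 6 lower means in YH250, with 0 at an unadjusted p under 0.05. The lowest p was that of Mafk, a small Maf protein, at 18.3, 15.9 and 27.5 RPM in YH250 and 30.3, 30.9 and 28.1 RPM in DMSO, with no overlap between the groups (-0.55 ± 0.29). Between numbers, 3 of the 14 were called, namely Cebpb, Mafg and Ddit3.

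The other Dusp, Sprouty and Spred genes, which restrain MAP kinases, split 6 against 6 among the 12 tested, with 1 at an unadjusted p under 0.05. That was Dusp14, at 0.737, 5.20 and 2.63 RPM in YH250, and at 0, 0 and 1.05 RPM in DMSO, a difference of a few RPM between groups that overlapped. Its mean was 0.349 RPM in DMSO, so it reached the minimum only through YH250, where it was high. Of 8 tested other Klf genes, 2 had higher and 6 lower means in YH250, with 0 at an unadjusted p under 0.05. Of 36 other rapidly induced genes tested, 14 had higher and 22 lower means, and Plk3, a stress-activated kinase, had an unadjusted p under 0.05. Plk3 was at 5.13, 0.280 and 3.40 RPM in YH250, and at 12.1, 6.34 and 6.88 RPM in DMSO, without overlap (-1.48 ± 0.64). Its unadjusted p in limma was 0.0449, and 0.00996 with the block (adjusted p = 0.999 and 0.66). With the block, 1 gene of this list was higher and 2 were lower at an unadjusted p under 0.05, against 4.46% and 2.99% of all genes. The list of deadenylation and decay genes, which also held Elavl1, Hnrnpd, Khsrp and Btg and Tob relatives, had 26 tested genes. Their median was -0.01, with 11 higher and 15 lower means and 0 at an unadjusted p under 0.05. With the block in limma, 1 of them was lower at an unadjusted p under 0.05, against 2.99% of all genes. It was Cnot6 (unadjusted p = 0.0323, adjusted p = 0.66). Between numbers, 9 of the 36 rapidly induced genes (25%) and 2 of the 26 decay genes (7.69%) were called.

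The 9 rapidly induced genes called between numbers were Cd69, Id2, Tnfaip3, Hes1, Per1, Rgs1, Rgs2, Gem and Cited2, and they did not all follow the Jun order. Cd69, an early activation antigen of lymphocytes, was at 60.3, 121.3 and 365.9 RPM in YH250 1, 2 and 3, and at 24.1, 129.3 and 290.5 RPM in DMSO 1, 2 and 3. Id2, an inhibitor of helix-loop-helix factors that is abundant in innate lymphoid and NK cells, was at 34.7, 82.4 and 236.8 RPM in YH250, and at 7.98, 27.3 and 240.9 RPM in DMSO. Both were highest in the libraries numbered 3, where the B cell and the T and NK cell markers were also highest, and the part of those markers was not tested. Cebpb, a dimer partner of AP-1 proteins, followed the Jun order instead, at 132.4, 178.4 and 74.2 RPM in YH250, and at 131.1, 166 and 47.3 RPM in DMSO. These 3 genes were chosen after their values were seen.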

How the data were processed

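Poly(A) RNA of sorted LTR-HSC was measured in 3 YH250 and 3 DMSO libraries. The deposited table gives 1 normalized signal per gene and library, and its unit is not stated. Since the lowest value is 1 and most low values step by a constant amount, the signal was read as RPM plus an offset of 1, which was removed. Partek, TopHat2 2.0.8 and CASAVA 1.8.2 are named in the submitters' processing notes without their roles, and mm10 as the build. One read was worth 0.0321 to 0.0455 RPM. Only 61.1% to 69.0% of values worth at most 20 reads came within 0.1 of a whole number of reads, so no count model was used. Intervals for counting error were not computed; 3 reads correspond to 0.0962 to 0.137 RPM.

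Symbols were matched by Ensembl ID for 40254 of 41128 genes, with positions and exons from GENCODE M21 (GRCm38, also called mm10). Genes averaging 1 RPM or more were tested as log2(RPM + 1) with limma 3.58.1 in R 4.3.3 (trend and robust), Benjamini-Hochberg adjusted over 13597 genes, after tests on simulated data. The simulated data for the unblocked fit held no differences between numbers, unlike these libraries. They therefore do not show what that fit can detect here. Libraries of the same number deviated together from their group means (correlations of 0.55, 0.26 and 0.70 for numbers 1, 2 and 3, all above 0.1). YH250 1 with DMSO 2 (0.144) and YH250 2 with DMSO 1 (0.109) were above 0.1 as well, so pairing is least certain for number 2. By these values the numbers were taken to pair the libraries, from the data and not from the labels, and blocked values are given where they change a result. Contrasts between numbers had treatment as a second term.

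The members, lists and tests were chosen with earlier results of these data known. Full values are given for members that lead the comparisons by a fixed rule (level, change or difference between numbers), and for the 2 genes of smallest p in each pathway list where of interest. Older symbols (Mkl1, Mkl2, Cyr61, Ctgf) were matched through RefSeq synonyms. Alternatives covered the pseudocount, the minimum level, 3 other scalings, array weights, the block and leaving out libraries.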

Additional observations from a re-analysis of the deposited data

How the results depend on the processing

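No alternative gave a member or any other gene at an adjusted p under 0.05 between YH250 and DMSO (limma; the smallest adjusted p was 0.66, with the replicate block). The block was used because same-numbered libraries deviated together. It raised the members at an unadjusted p under 0.05 in limma to 8 (22.9%, against 7.44% of all genes). Without it there was 1 (2.86%, against 1.7%). The block changed no adjusted call. The members' median log2 difference ran from -0.231 to 0.041 when libraries were left out. The members whose groups do not overlap were 2 (5.71%, against 7.48% of all genes). With a minimum mean of 5 RPM they were 1 (3.23%, against 7.51%), because Errfi1 is then not tested. When libraries were left out they were 3 to 6 (8.57% to 17.1%, against 13.3% to 33.3%). With genes rescaled to one sum they were 3 (8.57%, against 7.19% of all genes). Before that rescaling, the RPM in genes summed to between 699979 (DMSO 1) and 959240 (DMSO 3). The members called between replicate numbers were 15, with 7.84% of all genes. They were 0 with no minimum mean RPM (0.221% of all genes) and 1 without a mean-variance trend (1.63%). When 1 library was left out they ran from 11 (without DMSO 3, 3.02% of all genes) to 26 (without DMSO 2, 33.4%). The cause was not tested. A minimum of 0.1 RPM gave 10 members called between numbers, with 3.29% of all genes. That minimum, the fits without a trend and the blocked fit without a trend were chosen after seeing the data.

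Of 24 named members, 8 kept their sign under every alternative (Fosl2, Egr1, Nr4a2, Nr4a3, Dusp1, Dusp5, Zfp36l2 and Errfi1), and 44 of 502 alternative values had the other sign, none of them called. Nr4a3 and Errfi1 reached the minimum of 1 RPM only through DMSO, so their sign was built into their passing. With array weights the log2 difference was 0.272 for Fosb, -0.223 for Jun, 0.134 for Maff, -0.166 for Ier2 and -0.067 for Ier3, and with quantile normalization -0.026 for Ier2; the cause was not tested. When libraries were left out, the ranges that crossed 0 were those of Fos (-0.157 to 0.056), Fosb (-0.712 to 0.399), Jun (-0.309 to 0.789), Junb (-0.059 to 0.826), Jund (-0.744 to 0.485), Maff (-0.352 to 0.354), Nr4a1 (-0.661 to 0.192), Klf6 (-0.197 to 0.173), Klf9 (-1.009 to 0.478), Dusp2 (-0.488 to 0.084), Zfp36 (-0.381 to 0.127), Zfp36l1 (-0.541 to 0.369), Ier2 (-0.351 to 0.459), Ier3 (-0.006 to 0.595), Ier5 (-0.538 to 0.124) and Ppp1r15a (-0.285 to 0.623). Depth limits Egr2, Egr3, Fosl1, Nr4a3 and Errfi1, which stayed under 5 RPM in every library.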
